A study of Mus musculus with 30 samples.

Results

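S24-7 is the name under which the deposited taxonomy files the Muribaculaceae, a family of the order Bacteroidales in the phylum Bacteroidetes. Its members were taken as all 16S rRNA gene sequences of the filtered count table that carry the family name S24-7 and had at least 1 count in the 30 mice. These were 1661 of the 12980 amplicon sequence variants (ASVs) with counts, or 12.8%, and they held 3.12% of all counts. An ASV is a distinct sequence of the amplified gene region, so that 1 bacterial strain can give several ASVs when its genome carries unlike copies of the gene. No member had a named genus. All members shared the order Bacteroidales, and the name could not be checked further because the tables give an ASV number and a taxon for each row and no bases.

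The Muribaculaceae are obligate anaerobes that live mainly in the gut of rodents and other mammals, and in laboratory mice they are often among the most abundant Bacteroidetes. Their cultured relatives carry many enzymes that cut complex plant polysaccharides and host mucus glycans, and they release acetate, propionate and succinate from them. The family name came from a cloned sequence long before its first species were cultured, so that most of its lineages are known only as sequences.

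Feces of 30 female mice, aged 6 weeks at the start and named C57BL/6 in the labels and C57BL/6J in the methods, were sequenced in 5 groups of 6. Control mice received a normal diet and saline by gavage. Model mice received a high-fructose (HFru) diet with 60% fructose and saline, and the mice of the other groups received the HFru diet and, by gavage, 50 mg/kg salidroside, 23 mg/kg tyrosol or 26 mg/kg hydroxytyrosol. Tyrosol is the aglycone of the glucoside salidroside, hydroxytyrosol is tyrosol with an additional phenolic hydroxyl group, and the study derived the tyrosol and hydroxytyrosol doses from that of salidroside by molar conversion. The feeding lasted 8 weeks in the methods and 12 weeks in the legends. Salidroside, tyrosol and hydroxytyrosol mice are called treated mice here, and treated and model mice together HFru mice. The filtered table held from 41862 to 106609 counts per mouse.

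The S24-7 share of all counts was high in some control mice and low in all HFru mice. It was 0.686, 23.6, 34.3, 35.8, 8.62 and 0.374% in control mice 1 to 6. In model mice 1 to 6 it was 0.605, 0.188, 0.445, 0.0195, 0.0642 and 0.191%. The control mice thus fell into 4 mice above all 24 HFru mice and 2 mice, numbers 1 and 6, within the range of the HFru mice. Of all S24-7 counts, 83.5% (67992 of 81475) came from the control mice.

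The mean share was 17.2% ± 16.2 (SD, n = 6) in control and 0.252% ± 0.228 (SD, n = 6) in model mice. The difference of -17.0 percentage points had a 95% interval from -34.2 to -0.488 (exact permutation p = 0.00649, adjusted p = 0.0325 over the 10 pairs of groups). A model mouse had the higher share in 2 of the 36 pairings of a model with a control mouse. A share cannot tell fewer S24-7 bacteria from more bacteria of other taxa. The SD in control mice was nearly as large as their mean, so the size of the difference is known only roughly. Counting error was smaller than this spread. Model mouse 4, with the lowest share, had 19 S24-7 counts of 97592 and a Wilson 95% interval from 0.0125 to 0.0304%.

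In salidroside mice 1 to 6 the share was 1.11, 0.930, 0.0250, 0.486, 0.594 and 0.298%. In tyrosol mice it was 0.415, 1.5, 0.318, 1.71, 0.799 and 0.145%. In hydroxytyrosol mice it was 0.846, 0.331, 0.985, 0.735, 0.958 and 1.2%. All 3 groups overlapped the model mice, and the hydroxytyrosol mice overlapped them least, with 1 mouse inside the model range.

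The mean share was 0.843% ± 0.295 (SD, n = 6) in hydroxytyrosol mice, 0.591 percentage points above the model mice (95% interval from 0.248 to 0.920, exact p = 0.00649, adjusted p = 0.0325), and it was higher in 34 of 36 pairings. The tyrosol mean of 0.814% ± 0.652 (SD, n = 6) lay 0.562 points above the model mean, with an interval from -0.0461 to 1.24 (exact p = 0.0736, adjusted p = 0.123). The salidroside mean of 0.574% ± 0.401 (SD, n = 6) lay 0.322 points above it, with an interval from -0.107 to 0.746 (exact p = 0.126, adjusted p = 0.179). The hydroxytyrosol difference depended on what the share was taken of. When the genus Acinetobacter, an aerobe of soil, water and skin, was left out of the totals, the difference was 0.152 points (exact p = 0.803). When 5 families that are mostly aerobes or live on skin and in soil were left out (Moraxellaceae, Pseudomonadaceae, Planococcaceae, Staphylococcaceae and Aerococcaceae), it was 0.837 points (exact p = 0.229). The tyrosol difference was 1.40 points without Acinetobacter (exact p = 0.162) and 2.17 points without the 5 families (exact p = 0.0974). The salidroside difference was 0.521 points (exact p = 0.517) and 0.417 points (exact p = 0.641) in the same order.

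**Figure D1:**
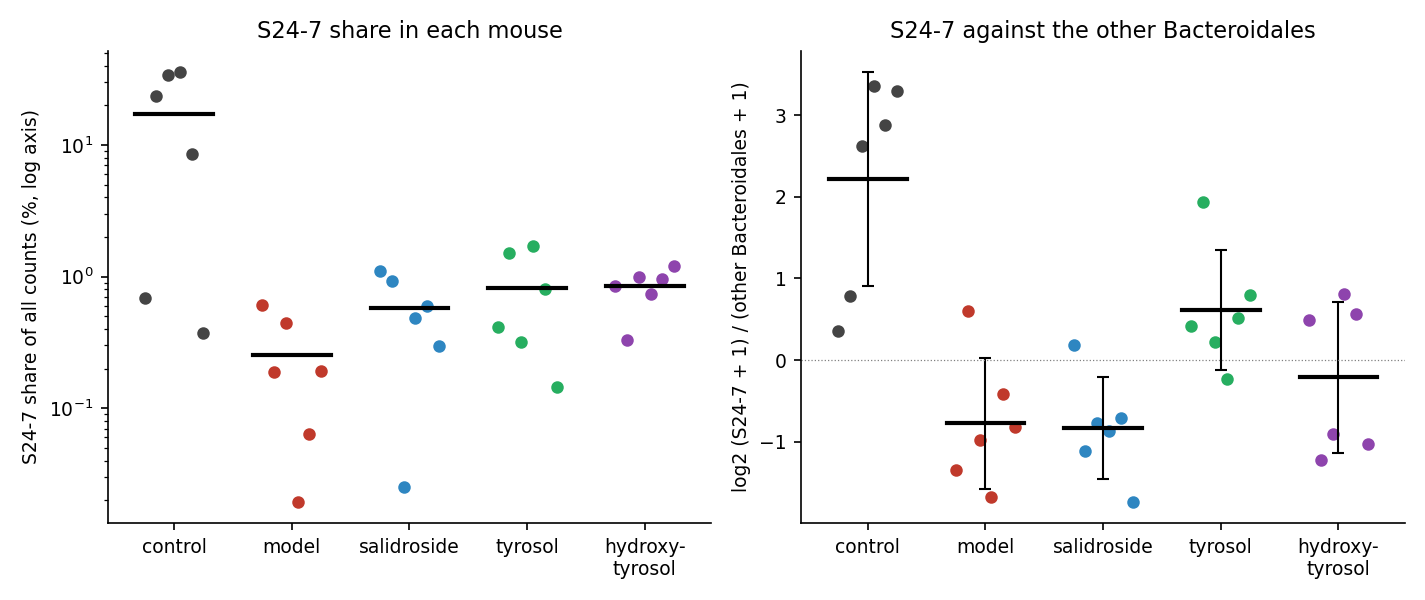
S24-7 share of all counts in each mouse (left, %, log axis) and the log2 ratio of S24-7 to all other Bacteroidales with 1 count added to each (right), for 5 groups of 6 mice. Points are mice in the order of their numbers, long lines are group means, and bars on the right are 1 SD. On the left 4 control mice stand above every HFru mouse, and on the right the control mean of 2.22 lies above the means of all HFru groups.

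The compounds were compared with each other at these doses. Hydroxytyrosol and tyrosol, which differ by the hydroxyl group, differed in mean share by 0.0284 percentage points (interval from -0.652 to 0.681, exact p = 0.918, adjusted p = 0.918). Salidroside and its aglycone tyrosol differed by -0.240 points (interval from -0.944 to 0.463, exact p = 0.457, adjusted p = 0.507). Salidroside and hydroxytyrosol differed by -0.269 points (interval from -0.715 to 0.195, exact p = 0.212, adjusted p = 0.265). None of the 3 pairs passed the test, and the intervals allow differences as large as the distance of each group from the model mice.

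In order of mean share of all counts the groups ran control, hydroxytyrosol, tyrosol, salidroside and model. No neighbouring groups in this order passed the exact test on shares of all counts. With Acinetobacter left out of the totals, hydroxytyrosol came last of the treated groups. It then lay 0.152 points above model mice, against 0.521 for salidroside and 1.40 for tyrosol. Hydroxytyrosol differed from control by -16.4 points (exact p = 0.0563, adjusted p = 0.113), and this pair passed before adjustment when Acinetobacter was left out of the totals (-16.9 points, exact p = 0.0216). The salidroside and tyrosol differences from control were -16.7 points (exact p = 0.0346) and -16.4 points (exact p = 0.0411), and each had an adjusted p of 0.103.

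The share of the 5 aerobic or skin and soil families also varied between groups. They held 40.7% ± 22.9 of the counts in control, 74.7% ± 13.2 in model, 55.4% ± 23.9 in salidroside, 75.9% ± 5.82 in tyrosol and 51.2% ± 28.9 in hydroxytyrosol mice (SD, n = 6 each). Model mice exceeded control mice by 34.0 percentage points (exact p = 0.0173, adjusted p = 0.0606 over 7 comparisons), and tyrosol mice, whose mean S24-7 share was 0.814% against 0.252% in model mice, differed from model mice by 1.18 points (exact p = 0.838). Tyrosol mice exceeded control mice by 35.2 points, in 36 of 36 pairings (exact p = 0.00216, adjusted p = 0.0152), the 1 comparison of the 7 that passed after adjustment. Across the 30 mice the Spearman rho of their share with that of S24-7 was -0.50, and across the 24 HFru mice it was -0.32. Both shares are parts of the same total. The share of merged reads that the authors removed as chimeric was 34.7% ± 5.67 in control, 19.1% ± 7.01 in model, 28.9% ± 1.99 in salidroside, 20.4% ± 7.48 in tyrosol and 26.03% ± 9.57 in hydroxytyrosol mice (SD, n = 6 each). It differed between model and control mice (exact p = 0.00433), salidroside and model mice (exact p = 0.00866) and tyrosol and control mice (exact p = 0.00649), each with an adjusted p of 0.0202 over 7 comparisons by the exact test, and its rho with the S24-7 share was 0.14 across the 30 mice. The labels give neither cage nor sequencing batch, and cage-mates share gut bacteria. The part of these measures in the result was not tested.

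On the family level, counts were fitted with edgeR's quasi-likelihood test over every family that reached 10 counts in 4 or more of the 12 mice compared. The S24-7 log2 fold change of model against control mice was -4.90 (SE 1.46, edgeR adjusted p = 0.0178), and 17.2% of the 58 families tested were called. It was -4.04 in salidroside (SE 1.31, edgeR adjusted p = 0.0316), -4.01 in tyrosol (SE 1.18, edgeR adjusted p = 0.0165) and -3.80 in hydroxytyrosol mice (SE 1.16, edgeR adjusted p = 0.0243), each against control. The families called in these comparisons were 15.1%, 26.3% and 25% of those tested. Against model mice, it was 1.16 in salidroside (SE 1.14, edgeR adjusted p = 0.545), 1.17 in tyrosol (SE 0.94, edgeR adjusted p = 0.413) and 1.30 in hydroxytyrosol mice (SE 0.85, edgeR adjusted p = 0.412), where 13.2%, 3.33% and 11.9% of families were called. The hydroxytyrosol difference that passed the exact test on shares thus did not pass this test on counts. The model mice are shared by the treated comparisons, and the control mice by the comparisons against control. The call against control was lost without any of 6 single mice for salidroside, namely control mouse 4 or salidroside mice 2 to 6 (adjusted p up to 0.0785), and without control mouse 3 or hydroxytyrosol mice 2 or 4 for hydroxytyrosol (adjusted p up to 0.0643). With no filter on low counts the calls against control were also lost for salidroside (edgeR adjusted p = 0.0733) and hydroxytyrosol (edgeR adjusted p = 0.0631). Without TMM normalization, which scales by the bulk of the families, the S24-7 log2 fold change against control was -6.09 in model mice (edgeR adjusted p = 0.00475), where the median over all families moved from 0.60 to -0.16, and -4.91 in salidroside mice. Without model mouse 3 it was -5.77 in model mice, and without control mouse 3 it was -3.37 in tyrosol mice, each still called.

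The other families of the same order gave a measure that does not depend on the aerobes. Bacteroidaceae, Prevotellaceae, Rikenellaceae and Odoribacteraceae are Bacteroidales of the gut that also break down glycans. All Bacteroidales outside S24-7 together held 4.08% ± 5.14 of the counts in control and 0.505% ± 0.591 in model mice (SD, n = 6 each; exact p = 0.0758, adjusted p = 0.215 over 7 comparisons). The log2 ratio of S24-7 to them was 0.36, 0.79, 2.62, 3.36, 2.88 and 3.29 in control mice 1 to 6. In model mice it was -1.34, 0.61, -0.98, -1.68, -0.42 and -0.82. S24-7 outnumbered the rest of its order in every control mouse, also in control mice 1 and 6, and in 1 of 6 model mice.

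The mean ratio differed by -2.99 between model and control mice (interval from -4.34 to -1.61, exact p = 0.00433, adjusted p = 0.0173 over 4 comparisons). In tyrosol mice the ratio was 0.42, 1.94, 0.22, -0.23, 0.52 and 0.80. It exceeded that of model mice by 1.39 (interval from 0.39 to 2.37, exact p = 0.013, adjusted p = 0.026) and was higher in 32 of 36 pairings. The ratio in salidroside mice ran from -1.73 to 0.19, with a mean 0.06 below that of model mice (interval of the difference from -1.0 to 0.85, exact p = 0.877). In hydroxytyrosol mice it ran from -1.22 to 0.81, with a mean 0.56 above it (interval from -0.55 to 1.77, exact p = 0.303). Whether the compounds differed from each other in this ratio was not tested.

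Within the order, the edgeR family test called S24-7, Prevotellaceae, [Odoribacteraceae] and [Paraprevotellaceae] lower in model than in control mice, 4 of the 8 Bacteroidales families tested. The log2 fold changes of the latter 3 were -6.11, -6.23 and -5.05, with edgeR adjusted p of 0.0191, 0.0137 and 0.0451. Prevotellaceae and [Paraprevotellaceae] had counts in 2 and 3 model mice, and [Odoribacteraceae] had a median share of 0.00204% there. These 3 families passed the filter on low counts mainly through control mice, which favoured a fall, so their calls are a description. S24-7 had at least 19 counts in every model mouse. In hydroxytyrosol against model mice the called family of the order was [Odoribacteraceae], at 5.95 (SE 1.40, edgeR adjusted p = 0.0117). It met the filter there through hydroxytyrosol mice, each with a share of at least 0.104%, which favoured a rise. Of 61 families present in at least 15 mice, the 5 whose share followed that of S24-7 most closely by Spearman rho over the 30 mice were [Paraprevotellaceae] at 0.80, [Odoribacteraceae] at 0.75, Ruminococcaceae at 0.71, Porphyromonadaceae at 0.70 and Rikenellaceae at 0.63. Over the 24 HFru mice alone the rho were 0.71, 0.64, 0.71, 0.66 and 0.43. The lowest were unclassified Bacteria at -0.50, Staphylococcaceae at -0.41 and Corynebacteriaceae at -0.40. These are descriptions over mice whose shares are parts of 1 total.

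The number of S24-7 ASVs was compared in the table that the authors had drawn down to 39768 counts in every mouse. It held 1440 of the 1661 members. The number was 41, 621, 667, 503, 217 and 21 in control mice 1 to 6, and 44, 15, 10, 1, 8 and 26 in model mice. In the control mice with a high share S24-7 thus gave from 217 to 667 ASVs, and in control mice 1 and 6 it gave as few as in HFru mice. The number ran from 3 to 44 in salidroside, from 7 to 46 in tyrosol and from 13 to 25 in hydroxytyrosol mice.

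The mean was 345 ± 289 in control and 17.3 ± 15.5 in model mice (SD, n = 6 each), a difference of -328 ASVs (interval from -611 to -26.0, exact p = 0.0108, adjusted p = 0.0487 over 10 pairs). The treated groups, with means of 22.2 ± 13.3 for salidroside, 22.8 ± 14.8 for tyrosol and 19.0 ± 4.29 for hydroxytyrosol (SD, n = 6 each), also differed from control, with the same adjusted p of 0.0487 by the exact test. They exceeded the model mean by 4.83, 5.50 and 1.67 ASVs, and the exact p ran from 0.541 to 0.842. When single mice were left out, the difference ran from 0.467 (without salidroside mouse 1) to 10.2 (without model mouse 1) for salidroside and from 0.867 (without tyrosol mouse 4) to 10.8 (without model mouse 1) for tyrosol, and it stayed short of the threshold (exact p from 0.190). For hydroxytyrosol it ran from -1.60 to 7.0. For hydroxytyrosol the interval of the difference over all mice ran from -13.0 to 14.7 ASVs. Salidroside and tyrosol differed by -0.667 ASVs (interval from -19.0 to 17.0, exact p = 0.946), hydroxytyrosol and tyrosol by -3.83 (interval from -18.7 to 10, exact p = 0.606), and salidroside and hydroxytyrosol by 3.17 (interval from -8.50 to 15.5, exact p = 0.621).

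**Figure D2:**
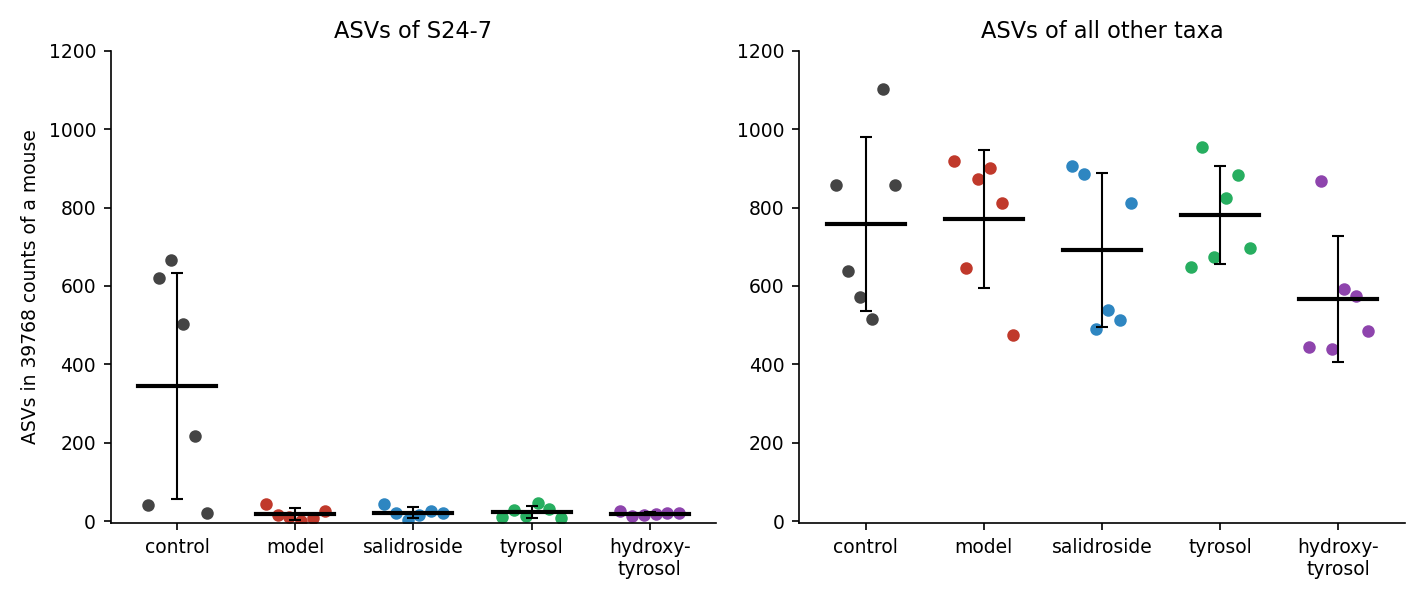
Number of ASVs per mouse at the same depth, for S24-7 (left) and for all other taxa (right), on 1 linear scale in 5 groups of 6 mice. Points are mice, lines are group means and bars are 1 SD. The control mean of 345 on the left stands far above the HFru groups, and on the right control and model means are 758 and 771.

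ASVs outside S24-7 did not show this pattern. Their number at the same depth was 758 ± 222 in control and 771 ± 176 in model mice (SD, n = 6 each), a difference of 13.3 with an interval from -252 to 287 (exact p = 0.898, adjusted p = 0.913 over 4 comparisons). All ASVs together differed by -314 (interval from -558 to -59.0, exact p = 0.0216, adjusted p = 0.0379 over 7 comparisons), so that the difference in S24-7 alone, -328, was as large as that of the whole table. S24-7 gave 29.3% ± 24.1 of the ASVs of a control mouse and 2.38% ± 2.07 of those of a model mouse (SD, n = 6 each). In hydroxytyrosol mice the number outside S24-7 was 567 ± 161 (SD, n = 6), 204 below model mice (exact p = 0.0649, adjusted p = 0.260).

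A mouse with more S24-7 counts can show more S24-7 ASVs, so the number expected in 100 S24-7 counts was computed too. Model mice 4 and 5 and salidroside mouse 3 had fewer counts and were left out. The number was 28.5, 53.0, 52.0, 43.8, 41.3 and 18.9 in control mice 1 to 6. It was 31.2, 16.0, 9.37 and 27.1 in model mice 1, 2, 3 and 6. Here the groups lay much closer together than by the plain number.

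The mean was 39.6 ± 13.4 (SD, n = 6) in control and 20.9 ± 10.03 (SD, n = 4) in model mice (exact p = 0.0476, adjusted p = 0.119 over 10 pairs). It was 18.2 ± 4.51 (SD, n = 5) in salidroside, 14.9 ± 5.64 (SD, n = 6) in tyrosol and 14.6 ± 1.94 (SD, n = 6) in hydroxytyrosol mice. Each differed from control, with exact p of 0.013, 0.00649 and 0.00216 and adjusted p of 0.0433, 0.0325 and 0.0216, the last raw value being the smallest that 6 against 6 mice can give. The 3 treated means lay below the model mean, where the plain number had them above it, and neither difference passed the test (exact p from 0.219 to 0.587 at 100 counts).

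**Figure D3:**
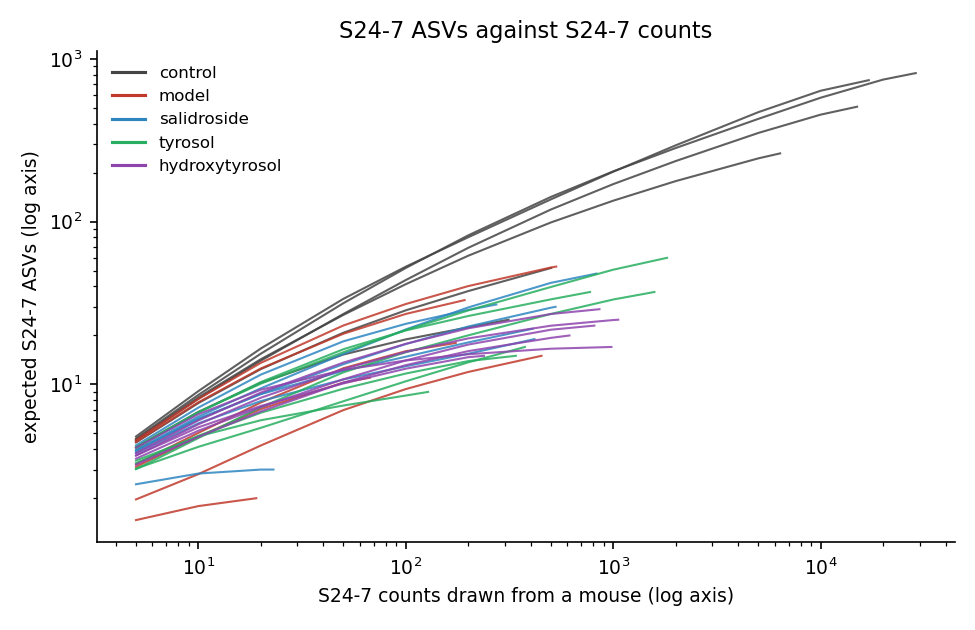
Expected number of S24-7 ASVs against the number of S24-7 counts drawn from a mouse, both on log axes, with 1 line per mouse that ends at its own S24-7 count. From 100 counts on the lines of 4 control mice run above those of HFru mice, and they had not levelled off at their ends, and the lowest line, model mouse 4, ends at 19 counts and 2 ASVs.

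Diversity within the family was also compared, without drawing the mice to equal S24-7 counts, which ran from 19 to 28749 per mouse. The part of these counts in the index and in the share of the most frequent ASV was not tested, and at 100 counts the ASV number of model against control mice had an adjusted p of 0.119 by the exact test. The Shannon index within S24-7, in bits, was 5.45 ± 1.13 in control and 2.71 ± 1.67 in model mice (SD, n = 6 each; exact p = 0.0108, adjusted p = 0.0189 over 7 comparisons). It was 3.20 ± 0.936 in salidroside, 3.0 ± 0.707 in tyrosol and 3.12 ± 0.313 in hydroxytyrosol mice (SD, n = 6 each), below control in each (adjusted p = 0.0152 by the exact test for all 3). The most frequent ASV of a mouse held 14.4% ± 5.83 of its S24-7 counts in control and 49.1% ± 32.6 in model mice (SD, n = 6 each; exact p = 0.0455, adjusted p = 0.0795). In salidroside, tyrosol and hydroxytyrosol mice it held 27.7%, 36.3% and 30.6% on average, above control with an adjusted p of 0.0202 by the exact test in each.

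Most members were rare. Of the 1661 ASVs, 1118 (67.3%) were found in 1 mouse, against 71.7% of the ASVs of all other taxa, and they held 4.65% of the S24-7 counts. There were 39 ASVs in at least 6 mice and 9 in at least 15. The 10 ASVs with the highest mean share held 41.7% of all S24-7 counts. Control mice gave 1506 of the members, of which 477 were in at least 2 control mice, and model, salidroside, tyrosol and hydroxytyrosol mice gave 105, 99, 110 and 69.

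Control and HFru mice shared 112 ASVs, while 1394 were found in control mice alone and 155 in HFru mice alone. The shared ASVs held 90.7% of the S24-7 counts of HFru mice, and the ASVs of control mice alone held 46.3% of those of control mice. Of the model ASVs 57.1% were also found in control mice, which is 3.98% of the control ASVs. There were 12 ASVs in every group. Of the 19 found in all 3 treated groups, 7 were not found in model mice. An ASV not seen in a mouse could still be there at up to 3 counts, a share of 0.00281 to 0.00717% at these depths.

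Some ASVs were frequent in control mice and nearly missing elsewhere. The 3 with the highest mean share in control mice were ASV_11856, ASV_8842 and ASV_74295. ASV_11856, the most frequent member of the whole table with 8.71% of all S24-7 counts, had 14, 1092, 4330, 1063, 427 and 32 counts in control mice 1 to 6. In HFru mice it had 24 counts in model mouse 1, 5 in model mouse 6, 110 in salidroside mouse 5 and 0 in the other mice. Its share of all counts was 1.64% ± 1.98 in control mice (SD, n = 6), and all control mice carried it.

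ASV_8842 had 31, 331, 714, 2057, 708 and 12 counts in control mice, 7 counts in model mouse 1 and 0 in all other HFru mice. ASV_74295 had 0, 268, 504, 1767, 558 and 0 counts in control mice and 0 in all 24 HFru mice. The ranges show that each of these ASVs was led by control mice 2 to 5, the 4 mice with a high S24-7 share. The 3 ASVs together held from 8.96 to 32.6% of the S24-7 counts of a control mouse and at most 5.84% of those of a model mouse. In salidroside mouse 5 they held 20.9%, all of it ASV_11856 and within the control range, and 0 in the other salidroside mice, and they were not found in tyrosol and hydroxytyrosol mice.

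For single ASVs, the edgeR test was run over every ASV that reached 10 counts in 4 or more of the 12 mice compared, and 64 of the 1661 members passed this filter in model against control mice. Of these 64, 47 were lower in model mice by the edgeR test at an adjusted p under 0.05, and 0 were higher. Over all 411 ASVs tested, 23.1% were called lower and 7.3% higher. An ASV that passes this filter through the control mice alone has to be lower in model mice, so the count describes these 64 and not the family. Their median log2 fold change was -8.07, beside -0.12 over all ASVs tested. Without TMM normalization both medians rose, to -7.94 and 0.50. At an unadjusted p under 0.05 in edgeR, 0 members were higher and 52 lower, beside 9.49% and 25.1% of all ASVs tested. DESeq2 called 0 higher and 49 lower, beside 7.79% and 22.4% of all ASVs.

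The count of 47 rested on control mice 2 to 5. Without control mouse 2, 3, 4 or 5 the filter kept from 22 to 25 members, and 14, 11, 9 and 13 of them were called lower, where 10%, 10.5%, 7.44% and 8.75% of all ASVs tested were. The called ASVs with the largest falls were ASV_74295, ASV_85809, ASV_62383, ASV_47606 and ASV_27493, with edgeR log2 fold changes of -12.69, -12.63, -11.68, -11.17 and -11.11. All 5 had 0 counts in every model mouse. They passed the filter through control mice alone and could only be lower, so their values are a description, and the fitted values depend on the prior count. Set against 3 counts per model mouse, the mean control share was at least 320-fold higher for ASV_74295 and at least 317-fold higher for ASV_85809. Without the control mouse highest in each, it was at least 112-fold and 200-fold higher. For the other 3 it was at least 76.6-fold higher, and at least 44.0-fold without the highest mouse.

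The other frequent ASVs were named for a high mean share, which control mice carried, and also passed the filter through control mice, so their fold changes are a description too. The edgeR log2 fold changes against control were -8.55 for ASV_38503, -7.28 for ASV_89821, -8.20 for ASV_72340, -6.95 for ASV_11856 and -9.45 for ASV_8842. ASV_20679 was found in more HFru mice than they were. It had 19, 939, 1821, 892, 147 and 0 counts in control mice and up to 57 counts in 12 of the HFru mice. Its log2 fold change in model against control mice was -5.81 (SE 2.55, edgeR adjusted p = 0.0732), near that of ASV_11856 at -6.95 (SE 2.67). The shares of 2 of the 64 members did not overlap between model and control mice, ASV_8842 and ASV_36644, and of all ASVs tested 0.973% were lower without overlap. ASV_36644, named here after its values were seen, had from 31 to 453 counts in control and from 0 to 22 in model mice, and its edgeR adjusted p was 0.0912.

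**Figure D4:**
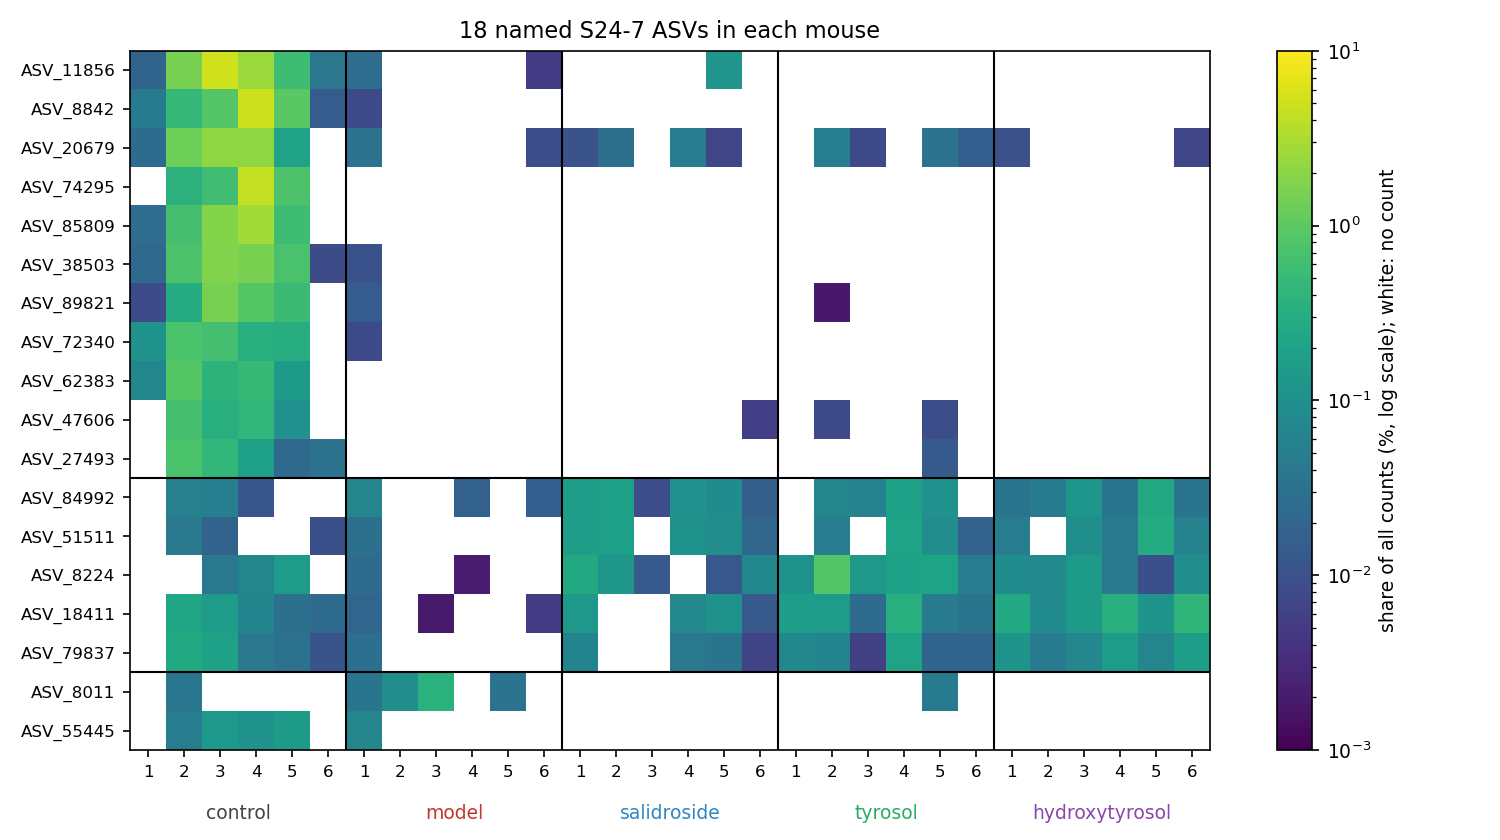
Share of all counts (%, log colour scale, white for no count) of 18 S24-7 ASVs in each of 30 mice, with a column for each mouse and its number below. The upper 11 rows are ASVs frequent in control mice, the middle 5 rows those leading in treated mice, and the lower 2 rows ASV_8011 and ASV_55445. The upper rows are filled in control mice 2 to 5. Of these rows ASV_20679 has counts in 12 of 24 HFru mice and the others in 0 to 3, and the middle rows are filled in most treated mice.

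Treated mice were led by another set of ASVs than control mice. The 3 ASVs with the highest mean share in each treated group made up a set of 5, ASV_18411, ASV_8224, ASV_84992, ASV_51511 and ASV_79837. They held from 44.0 to 87.0% of the S24-7 counts of a salidroside mouse, from 58.9 to 85.6% in tyrosol and from 60.6 to 82.1% in hydroxytyrosol mice. In control mice they held at most 12.1%. In model mice 1 to 6 they held 27.9, 0, 0.443, 100, 0 and 10.9%. In 17 of 18 treated mice the most frequent S24-7 ASV was one of the 5, the exception being salidroside mouse 5 with ASV_11856. The set was chosen by its level in treated mice, so these values are a description.

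ASV_18411 was the most widespread member, with counts in 24 mice. In hydroxytyrosol mice 1 to 6 it had 281, 62, 148, 275, 98 and 368 counts, and in tyrosol mice 154, 162, 27, 347, 44 and 30. In salidroside mice it had 101, 0, 0, 65, 97 and 12, and in model mice 18, 0, 2, 0, 0 and 5. Control mice had 0, 165, 135, 27, 22 and 21. The hydroxytyrosol and tyrosol mice thus lay above all model mice, while salidroside mice 2 and 3 had none.

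The edgeR log2 fold change of ASV_18411 against model mice was 5.49 in hydroxytyrosol (SE 2.22, adjusted p = 0.0521), 4.30 in tyrosol (SE 1.93, adjusted p = 0.284) and 3.49 in salidroside mice (SE 2.22, adjusted p = 0.763). None of these passed the test. In share of all counts, 2 members did not overlap with model mice in each of tyrosol (ASV_18411 and ASV_8224) and hydroxytyrosol (ASV_18411 and ASV_79837), among the 9 and 8 members tested. Over all ASVs tested 4.95% and 5.17% were higher without overlap in these comparisons. In salidroside mice 0 of the 9 members tested were. These ASVs were chosen as leading in treated mice, and each reached 10 counts in model mouse 1 alone of the model mice, so that the filter on low counts favoured a rise and the overlap is a description.

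ASV_8224 led in tyrosol mice, with 101, 879, 146, 209, 201 and 42 counts. It had from 8 to 149 counts in hydroxytyrosol and from 0 to 202 in salidroside mice, and 22 and 2 counts in model mice 1 and 4. The log2 fold change in tyrosol against model mice was 5.58 (SE 2.03, edgeR adjusted p = 0.0907). Tyrosol mouse 2 held the highest count of any of the 5 ASVs.

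ASV_84992 and ASV_51511 had the highest mean shares in salidroside mice, 0.0966 and 0.0958% of all counts, followed by ASV_8224 at 0.0837%. By mouse, ASV_8224 was the most frequent member in 3 of 6 salidroside mice and ASV_84992 and ASV_51511 in 1 each. ASV_84992 had 124, 86, 8, 89, 79 and 15 counts there and ASV_51511 had 125, 80, 0, 96, 82 and 19. The model mice with ASV_84992 were mouse 1 with 57, mouse 4 with 17 and mouse 6 with 16 counts, and model mouse 1 was the single model mouse with ASV_51511, at 26 counts. The fold change of ASV_51511 in salidroside against model mice, 3.66 on the log2 scale (SE 2.27), had an edgeR adjusted p of 0.763, and that of ASV_84992, 2.28 (SE 2.15), one of 0.931.

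Of these 5, ASV_18411, ASV_8224 and ASV_84992 had log2 fold changes in model against control mice of -3.40, -3.32 and 0.52, with edgeR adjusted p of 0.284, 0.273 and 0.872, and ASV_79837 had -4.41 with 0.161. None of these 4 was called, and ASV_51511 did not pass the filter on low counts there. Their summed share was 0.251% ± 0.233 in control, 0.0352% ± 0.0661 in model, 0.356% ± 0.278 in salidroside, 0.578% ± 0.457 in tyrosol and 0.590% ± 0.187 in hydroxytyrosol mice (SD, n = 6 each). In model mouse 4 they made up all 19 S24-7 counts.

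The 5 ASVs formed 2 pairs whose members varied together. Over the 18 treated mice the Spearman rho of shares was 0.97 for ASV_18411 with ASV_79837 and 0.87 for ASV_84992 with ASV_51511, and from 0.01 to 0.28 for the other 8 combinations. ASV_18411 had 1.64 to 3.13 counts for each count of ASV_79837, with a median of 2.10, in the 14 treated mice with at least 10 counts of both. In the 4 control mice with as many, the ratio was 0.83 to 1.69, with a median of 0.89, and in model mouse 1 it was 0.72. ASV_84992 had 0.62 to 1.30 counts for each of ASV_51511, with a median of 0.94, in 13 treated mice. In 2 control mice this ratio was 1.38 and 2.69, and in model mouse 1 it was 2.19. The mice of a group share a total and a diet, and these ratios were chosen after the values were seen.

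**Figure D5:**
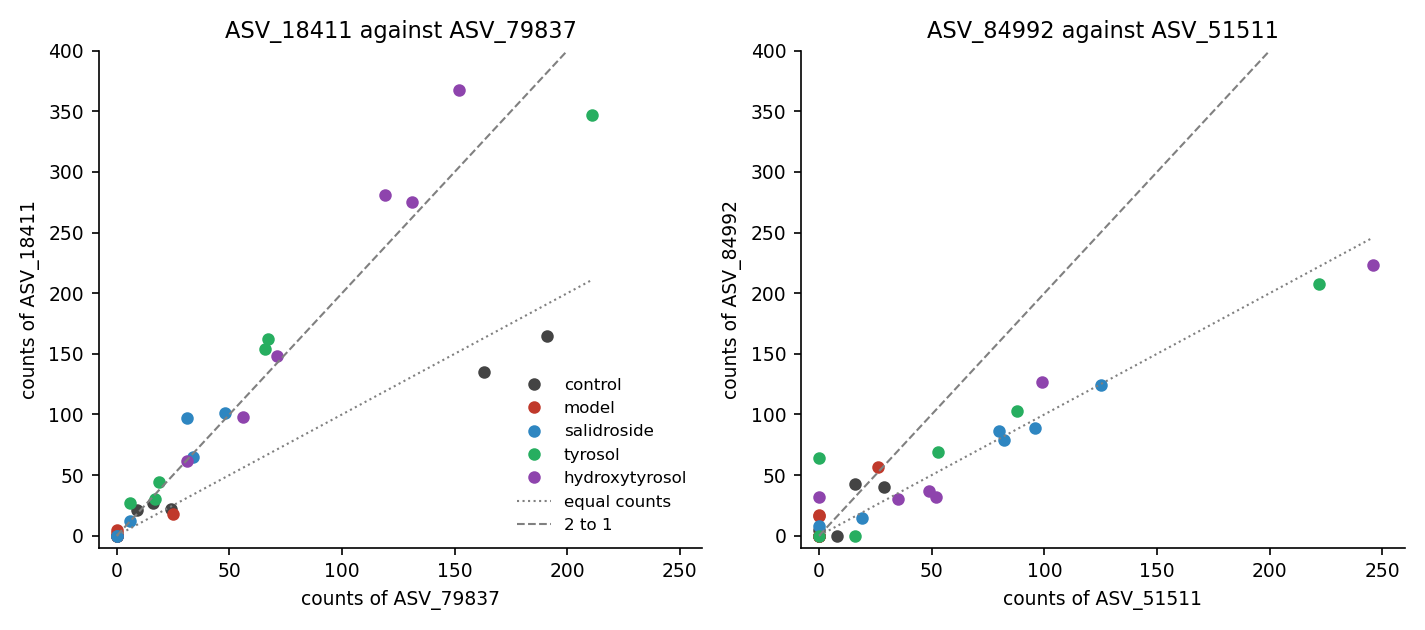
Counts of ASV_18411 against those of ASV_79837 (left) and of ASV_84992 against ASV_51511 (right) in 30 mice, with lines at equal counts and at 2 to 1. Treated mice lie near the 2 to 1 line on the left, where 2 control mice with over 100 counts lie below the line of equal counts, and near equal counts on the right.

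ASV_8011 stood out in model mice. It had 31, 86, 359, 0, 35 and 0 counts in model mice 1 to 6, 27 in control mouse 2, 42 in tyrosol mouse 5 and 0 in all other mice. It was the most frequent S24-7 ASV of model mice 2, 3 and 5, with 49.4, 79.6 and 52.2% of their S24-7 counts. It had been chosen as the member with the highest mean share in model mice. With 0 counts in all salidroside and hydroxytyrosol mice, it passed the filter on low counts through model mice 1, 2, 3 and 5 alone, so that in these comparisons it could only be lower, and its calls are given as a description. It was the 1 member called in salidroside against model mice (edgeR adjusted p = 0.0337, lower) and the 1 member called in hydroxytyrosol against model mice (edgeR adjusted p = 0.00404, lower).

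With 3 counts per mouse as the limit, its mean share in model mice was at least 21.3-fold higher than in salidroside and at least 25.0-fold higher than in hydroxytyrosol mice. Without model mouse 3 this was at least 8.01-fold and 9.39-fold. Without model mouse 1, 2, 3 or 5, ASV_8011 fell below the filter on low counts and was not tested, so its call was lost by the filter in both comparisons. Of the other mice left out, the call against salidroside was kept without model mouse 6 alone. The call against hydroxytyrosol was kept without each of the other mice. Among the 9 and 8 members tested in these comparisons 0 were called higher by edgeR. In salidroside mice 0 members were higher at an unadjusted p under 0.05 and 0 by DESeq2, beside 6.15% and 5.03% of all ASVs. Over all ASVs tested 3.63% were called higher and 0.559% lower in salidroside, and 8.28% higher and 24.5% lower in hydroxytyrosol mice. In tyrosol against model mice 0 of the 9 members tested were called in either direction by edgeR, where 7.55% of all ASVs were called higher and 0.943% lower. At an unadjusted p under 0.05, 2 members were higher and 0 lower in tyrosol mice, beside 10.4% and 3.07% of all ASVs, and DESeq2 called 2 higher and 0 lower, beside 9.67% and 1.18%. In hydroxytyrosol mice 1 member was higher at an unadjusted p under 0.05 in edgeR, beside 11% of all ASVs, and 4 were called higher by DESeq2, beside 14.1%.

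Model mouse 1 had the most S24-7 counts of its group, 531, and the most S24-7 ASVs in the filtered table, 53 against 2 to 33 in the other model mice. Of these, 29 (54.7%) were found in at least 2 control mice, as were 18 of 33 (54.5%) in model mouse 6. At 100 S24-7 counts the expected number of ASVs was 31.2 in model mouse 1 and 27.1 in model mouse 6. The most frequent member in model mouse 1 was ASV_55445, with 58 of its 87731 counts, 36 to 114 counts in control mice 2 to 5 and 0 in all other mice. Without model mouse 1, edgeR called 1 of 4 members higher in salidroside, 3 of 8 in tyrosol and 4 of 7 in hydroxytyrosol mice, beside 6.15%, 10.1% and 12.9% of all ASVs tested in the same fits. In the other model mice ASV_18411, ASV_8224, ASV_79837 and ASV_51511 had at most 5 counts. Without model mouse 1 they thus passed the filter on low counts through treated mice alone and could only be higher. These calls are a description.

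The composition of the family was compared between mice by the Bray-Curtis distance of S24-7 profiles, each profile being the counts divided by the S24-7 total of the mouse, so that 0 means equal and 1 no shared ASV. Hydroxytyrosol mice lay closest together, with a mean distance of 0.442 over 15 pairs of mice, followed by tyrosol mice at 0.510, salidroside mice at 0.609, control mice at 0.622 and model mice at 0.824. Between treated groups it was 0.583 for salidroside and tyrosol, 0.550 for tyrosol and hydroxytyrosol and 0.638 for salidroside and hydroxytyrosol, near the distances within them. From model mice the treated groups were 0.861 to 0.881 away and from control mice 0.924 to 0.949. These distances were not tested, and profiles of few counts, as in model mice 4 and 5 with 19 and 67, can lie far from others by sampling.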

How the data were processed

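Fecal 16S rRNA gene amplicons of 30 mice were analysed from 3 count tables as deposited. Per the methods, the authors merged reads with FLASH, filtered them with QIIME and removed chimeric sequences with UCHIME, and their read log adds a denoising step. The methods also describe grouping similar sequences into operational taxonomic units, whereas the deposited rows carry ASV numbers. The deposited counts are whole numbers per ASV and mouse, not normalized, in an unfiltered table, a table without singletons (the filtered table) and one drawn to 39768 counts per mouse. The taxonomy version is not given in the sources used here. Groups came from the group label and mouse numbers from the sample titles. The table columns carry other numbers for 13 mice (3 model, 4 salidroside and 6 hydroxytyrosol), which were matched through the label that repeats the column name. The pioglitazone group is not analysed here.

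Shares came from the filtered table and ASV numbers from the even-depth table. Group means were compared by two-sided exact permutation tests over mice (the doubled one-sided p, smallest 0.00216 for 6 against 6), with 95% intervals by inversion of the test and Benjamini-Hochberg adjustment over the comparisons stated. Family and ASV counts were tested with edgeR 4.0.16 (quasi-likelihood, TMM), adjusted over all features, at an adjusted p under 0.05. DESeq2 was an alternative. The procedures were tested on simulated data. Named ASVs are the 10 with the highest mean share, the top 3 of each group, and up to 5 called rises and falls per comparison. The members and lists were chosen with earlier results of these data known. Wilson intervals and the 3 counts allowed by a count of 0 account for counting error alone, because PCR reads without molecular identifiers are not independent molecules. Of the 75 pairs of mice within a group, 0 had identical counts. Nothing in the labels says how cages were arranged, so the p-values measure the spread between these mice.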

Additional observations from a re-analysis of the deposited data

Results flagged for a closer look

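The number of ASVs outside S24-7 at even depth was 868 in hydroxytyrosol mouse 2, and from 440 to 592 in the other 5 hydroxytyrosol mice. The gap to the nearest mouse was 0.645 of the range of the group, above the limit of 0.625 that Dixon's test sets for 6 mice. Without this mouse the difference from model mice was -264 ASVs (exact p = 0.0216), against -204 (exact p = 0.0649) with it. S24-7 share, S24-7 ASV number, the ratio to the other Bacteroidales and the ASV number outside S24-7 were examined in 5 groups each, and this was the 1 value of 20 groups beyond the limit, where chance gives about 1 in 20. The S24-7 share of this mouse, 0.331%, was the lowest of its group. Leaving out 1 other mouse of the hydroxytyrosol and model groups also brought a call on ASVs outside S24-7 (exact p = 0.0173).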

How the results depend on the processing

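Settings were judged by the unadjusted exact p for shares, ASV numbers and ratios, and by the adjusted p of edgeR, limma or DESeq2 for family counts. For model against control mice, the share, its ratio to the other Bacteroidales and the family count kept direction and call under every alternative, except that the family count lost its call with a replicate block (-4.41, edgeR adjusted p = 0.120) and the ASV number with a replicate block (-328, exact p = 0.125). In hydroxytyrosol against model mice the share lost its call with totals without Acinetobacter (0.152 points) and without the 5 families (0.837 points), and kept it elsewhere.

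Against control, the salidroside share lost its unadjusted call with mean ranks (-4.00, exact p = 0.0649) and the replicate block (-16.7, exact p = 0.0938), the tyrosol share with mean ranks (-3.67, exact p = 0.0931), and the hydroxytyrosol share gained one without Acinetobacter (-16.9 points, exact p = 0.0216) and without the 5 families (-21.8 points, exact p = 0.0411). The difference of hydroxytyrosol from tyrosol reversed without Acinetobacter (-1.24) and without the 5 families (-1.34), and that of salidroside from hydroxytyrosol without Acinetobacter (0.370), with no call on either side. With the replicate block the ASV number lost its call for salidroside (-323, exact p = 0.125) and hydroxytyrosol (-326, exact p = 0.0625) against control. At 100 S24-7 counts the ASV number reversed for salidroside (-2.76), tyrosol (-6.01) and hydroxytyrosol (-6.37) against model mice and for salidroside against tyrosol (3.25), and with presence at 2 counts for salidroside against hydroxytyrosol (-0.833), all uncalled. The family count against control lost its call with no filter for salidroside (-4.10, edgeR adjusted p = 0.0733) and hydroxytyrosol (-3.51, adjusted p = 0.0631), and with the block for salidroside (-3.37), tyrosol (-3.08) and hydroxytyrosol (-2.65).

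Members called lower in model mice numbered 0 with no filter, where 7652 ASVs were tested, 133 with 10 counts in 2 mice and 4 with the replicate block. In parentheses after a count of members called stands the share of all ASVs called in the same fit and direction. With 10 counts in 2 mice this share was 32.3% for lower calls in model mice, and with the block 2.19%. With 10 counts in 2 mice 1 member (14.9%) was higher in model mice, 1 (9.23%) higher in salidroside, 4 (13.1%) higher and 1 (8.33%) lower in tyrosol, and 6 (12.9%) higher and 2 (41.5%) lower in hydroxytyrosol mice. The member called lower in salidroside mice was lost (0 called) with no filter, all 30 mice in 1 model and the block, and that in hydroxytyrosol mice (0) with no filter. Higher calls rose to 2 (9.67%) with DESeq2 and 1 (3.77%) with the block in tyrosol mice, and in hydroxytyrosol mice to 1 without TMM (9.31%) and with all 30 mice (9.66%), 2 with singleton pairing (11.4%) and the block (8.97%), and 4 (14.1%) with DESeq2. The cause was not tested. The replicate numbers did not pair the mice, neither those of the titles, used for the block, nor those of the table columns. By the titles, over the 10 pairs of groups the correlation of same-numbered mice ran from -0.47 to 0.40, and at most 2 of 6 mice correlated best with their own number. By the column numbers, with 3 to 6 pairs each, it ran from -0.43 to 0.32.

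When each mouse was left out in turn, the share difference ran from -20.4 to -13.3 in model against control, 0.519 to 0.693 in hydroxytyrosol, 0.214 to 0.432 in salidroside (called without salidroside mouse 3, exact p = 0.0390) and 0.383 to 0.696 in tyrosol against model (called without tyrosol mouse 6, exact p = 0.0346). Against control it ran from -20.0 to -12.9 for salidroside (8 of 12 lost the call), -19.8 to -12.7 for tyrosol (10 of 12 lost it) and -19.8 to -12.7 for hydroxytyrosol (called without control mouse 1 or 6). Hydroxytyrosol against tyrosol ran from -0.105 to 0.207, salidroside against tyrosol from -0.374 to -0.0615 and salidroside against hydroxytyrosol from -0.376 to -0.159, all uncalled. The ASV number ran from -392 to -263 in model against control, and uncalled differences from -1.60 to 7.0 for hydroxytyrosol against model, -5.03 to 3.97 for salidroside against tyrosol, -7.0 to 0.800 for hydroxytyrosol against tyrosol and -1.20 to 7.0 for salidroside against hydroxytyrosol. The salidroside ratio against model ran from -0.27 to 0.21. ASVs outside S24-7 ran from -34.8 to 82.4 in model against control, -49.9 to 39.1 in tyrosol and -264 to -174 in hydroxytyrosol against model (2 of 12 gained a call). The family count against control ran from -4.51 to -3.63 for salidroside and -4.01 to -3.24 for hydroxytyrosol. Against model mice it ran, uncalled, from 0.653 to 1.67 for salidroside, 0.851 to 2.03 for tyrosol and 1.10 to 2.06 for hydroxytyrosol. Members called lower in model mice ran from 9 to 54 (7.44 to 31.7%) and higher from 0 to 1 (4.18 to 19.1%). Against model mice, salidroside ran from 0 to 1 higher (1.2 to 6.15%) and 0 to 1 lower (0 to 0.575%), tyrosol from 0 to 3 (5.18 to 10.1%) and 0 to 1 (0.244 to 1.52%), and hydroxytyrosol from 0 to 4 (5.17 to 12.9%) and 0 to 1 (6.16 to 38.6%). Calls on single ASVs in model and treated mice rest on few counts, from 19 to 1817 S24-7 counts per mouse. Where the mice of 1 group alone met the filter on low counts, the direction of a call was fixed by it. The alternatives for ASVs outside S24-7 were chosen after seeing the data.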
